A study of Mus musculus with 42 samples.

Results

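Ago2-dependent association of RNA with the protein Tnrc6a was measured in 12 of the 42 libraries of the series, those labelled as tagged or as tagged Ago2-/- in its second experiment. All cells were mouse embryonic stem cells of strain 129S6/SvEvTac with the reporter GFP_5xT71BS and a stably integrated FLAG-Cas9::T2A::Blasticidin construct, so the controls carried Cas9 and the reporter too. Tagged cells bore HA-AVI-Tnrc6a, and tagged Ago2-/- cells bore the same tag together with the Ago2 deletion. Each genotype gave 3 input libraries, made from lysate RNA, and 3 IP libraries, made from RNA held by anti-HA magnetic beads. The replicates were dishes of a culture, and the labels do not say whether each genotype came from 1 clone or several, so p-values here measure the spread between dishes. Untagged cells (3 input and 3 IP libraries) show what the beads held without the tag. A further 18 libraries of the first experiment, from untagged, tagged and tagged Trim71-/- cells, share no library with this comparison. The measured quantity was log2 IP over input in Ago2-/- cells minus the same value in tagged cells, which asks which RNAs were held less, or more, by Tnrc6a when Ago2 was deleted.

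Argonaute proteins load a microRNA (miRNA) and pair its seed, bases 2 to 8, with sites in mRNAs, mostly in the 3′ UTR. Tnrc6a, a GW182-family protein, binds Argonaute through GW repeats and brings the CCR4-NOT deadenylase, so that the bound mRNA is shortened at its poly(A) tail, translated less and decayed. Mouse cells have the Argonautes Ago1 to Ago4, all of which can bind GW182 proteins. Embryonic stem cells are known for abundant miRNAs of the miR-290 and miR-302 clusters and of the miR-17 to miR-92 cluster and its copies, while mature let-7 is held low by Lin28a. Mature sequences of these families are printed because the gene lists used here are built on their reported targets. Capitals mark the seed, and the sequences and positions are from RefSeq on GRCm38.p6.
mmu-miR-294-3p: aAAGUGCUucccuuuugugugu
mmu-miR-295-3p: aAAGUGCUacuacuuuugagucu
mmu-miR-302b-3p: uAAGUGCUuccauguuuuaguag
mmu-miR-17-5p: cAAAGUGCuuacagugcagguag
mmu-miR-20a-5p: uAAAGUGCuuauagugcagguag
mmu-miR-19b-3p: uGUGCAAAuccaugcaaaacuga
mmu-miR-92a-3p: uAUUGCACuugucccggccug
mmu-let-7a-5p: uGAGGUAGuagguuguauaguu
The first 3 share the seed AAGUGCU. The seed of miR-17 and miR-20a, AAAGUGC, is the same run of bases shifted by 1 position, so both groups hold AAGUGC. The miR-294 and miR-295 genes lie on chromosome 7 (mature miR-294-3p at chr7:3220691-3220712, plus strand), and miR-17, miR-20a, miR-19b and miR-92a lie together on chromosome 14 (mature miR-17-5p at chr14:115043684-115043706, plus strand). Seed matches were not counted here, since no UTR sequence was used.

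The libraries held 16782458 to 20661884 counts over 19866 genes, and 19778 genes passed the filter on low counts. The labels were checked first. Ago2 RNA (chr15:73101625-73184947) stood at 390.2, 321 and 347 CPM in the 3 tagged inputs and at 158, 162 and 167 CPM in the 3 Ago2-/- inputs, where CPM is counts per 1000000 counts of the scaled library. The groups did not overlap, and the change of -1.12 (SE 0.10, edgeR adjusted p 2.52e-08) goes in the direction of the label, with RNA of the gene still present. Of 16 embryonic stem cell markers 15 reached 1 CPM, and their summed input level was 10334.5 to 10489 CPM in tagged and 11391.6 to 11546 CPM in Ago2-/- cells. In input 6 of the 16 were called higher and 1 lower, against 4.38% and 2.57% of all genes. Markers of other cell types summed to far less and moved in both directions. Primitive endoderm markers summed to 78.1 to 91.9 CPM in tagged inputs and to 37.8 to 44.4 CPM in Ago2-/- inputs, with 5 of 8 measured members called lower in input and Foxa2 and Afp not listed. In the IP over input ratio 0 of the 8 were called by edgeR or by DESeq2, and 0 had an unadjusted p under 0.05. The trophoblast sum went the other way, from 86.9 to 100.1 CPM in tagged to 124 to 144 CPM in Ago2-/- inputs, with 1 of 5 measured members called higher and 1 lower and the defining Cdx2, Elf5, Gata3 and Prl3d1 not listed. Neuroectoderm markers summed to 91.7 to 103 CPM and 111 to 119 CPM (1 of 6 measured members called higher), and mesoderm markers to 13.1 to 14.7 CPM and 15.9 to 17.7 CPM (2 of 6 called higher, Mesp1, Evx1 and Lhx1 not listed). In the ratio 0 members of these 3 lists were called by edgeR or by DESeq2, and 1 neuroectoderm marker had an unadjusted p under 0.05. In each of these lists and in the primitive endoderm list 1 gene gave most of the summed input. Means in tagged and Ago2-/- inputs were 59.3 and 30.0 CPM for Col4a1 (primitive endoderm) and 81.0 and 121 CPM for Tfap2c (trophoblast). They were 61.2 and 77.8 CPM for Tubb3 (neuroectoderm) and 9.91 and 10.3 CPM for Eomes (mesoderm). The part of these shifts in the results was not tested. In bulk RNA, fewer cells of a type and less RNA per cell cannot be told apart.

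The IP libraries differed in how strongly they held bound RNA, and this touches every result below. Over 1678 genes that were at least 4-fold tag-specific in the first experiment, the median log2 ratio of IP to mean input was 1.82, 1.54 and 1.36 in the 3 tagged IPs and 1.38, 1.07 and 1.03 in the 3 Ago2-/- IPs. In untagged IPs it was -0.11, -0.06 and -0.09. The weakest tagged IP, replicate 3, lay just below the strongest Ago2-/- IP, replicate 1, so the groups overlapped (difference -0.41, exact permutation p 0.2, two-sided, where 3 against 3 cannot go below 0.1). That test did not pair libraries by replicate number, and within each number the Ago2-/- IP had the lower median. Tnrc6a RNA itself, the mRNA of the bait, took 2.03, 1.56 and 1.22% of counts in tagged IPs and 2.83, 1.65 and 1.42% in Ago2-/- IPs. Its ratio did not pass the test (-0.19 (SE 0.28, edgeR adjusted p 0.869), with 0.0337 to 0.997 over the alternative fits described below), and the direction of its value turned to 0.070 without tagged IP replicate 1. Whether the lower median in Ago2-/- IPs came with the genotype or with the handling of these libraries cannot be told apart. As an alternative chosen after the data were seen, each library's median was therefore also entered as a covariate of the fit, here called the capture covariate. It asks which genes differ beyond the slope with capture seen within groups. That slope also used the untagged and the tagged Trim71-/- IPs of the second experiment. The 1678 genes were themselves among those tested, so the covariate is not independent of the values it adjusts. With the covariate Tnrc6a was called higher (0.72, SE 0.19, edgeR adjusted p 0.0319), so no direction is given for the bait's mRNA.

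RNAs were called as held less in Ago2-/- cells far more often than as held more. Of the 19778 genes tested, 746 were called lower in IP over input (3.77% of all genes tested) and 76 higher (0.384%), at an edgeR quasi-likelihood Benjamini-Hochberg adjusted p under 0.05. At least 2-fold changes were seen in 108 of the lower and 11 of the higher genes. The median over all genes was 0.003 and the median SE 0.18 on the log2 scale. The 746 genes had a median change of -0.64, from a median IP over input of 1.30 in tagged cells to 0.63 in Ago2-/- cells, with -0.07 in untagged cells. In 613 of them the ratio was still called above 0 in Ago2-/- cells, so most remained associated. All 9 differences of an IP and an input library of Ago2-/- cells lay below all 9 of tagged cells for 613 of the 746 (82.2%, against 6.95% of all genes tested separating either way). Separation and calls come from the same libraries, so these shares describe the calls and are no support for them. The counts moved with the settings. Without tagged IP replicate 3, 1144 genes were called lower, and the genes called with a change of at least 2-fold went from 119 to 225, or to 207 without Ago2-/- IP replicate 1. Without Ago2-/- input replicate 1, 44 were called higher. Scaling to library size alone moved the median gene to 0.11 and gave 468 lower and 165 higher, so that higher calls made up 26.1% of calls against 9.25%. With the capture covariate 194 were called lower and 286 higher (59.6% higher). Of the 746, 745 kept a value below 0 and 187 were called lower again, with a median change of -0.35, and 33 of the 76 were called higher again.

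**Figure D1:**
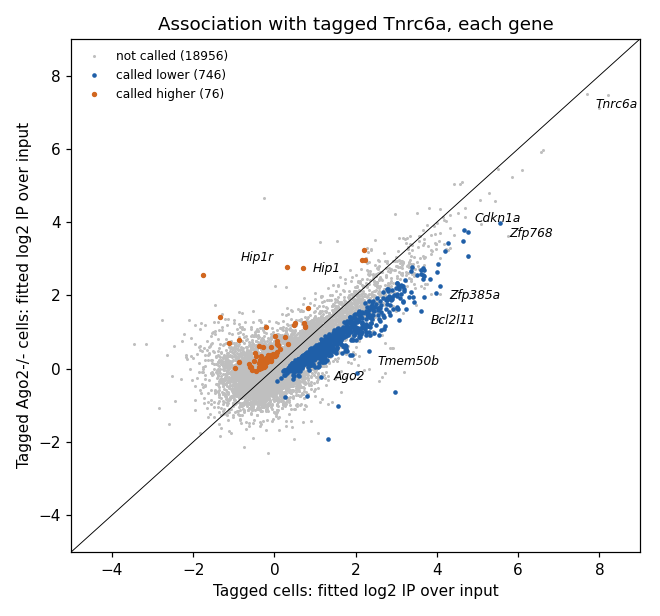
Fitted log2 IP over input in tagged cells (x axis) and in tagged Ago2-/- cells (y axis) for each gene tested, with 746 genes called lower in blue, 76 called higher in orange, the other 18956 in grey and the line of equal ratios in black. Genes called lower lie below the line, most of them above 0 on both axes, and 1 gene called higher, Art3, lies outside the axes.

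The gene with the largest drop under the naming rule was Bcl2l11 (chr2:128126038-128162547), which codes for Bim, a BH3-only protein that triggers apoptosis and a textbook target of miR-17 and miR-92. Its RNA measured 519.9, 420.2 and 349 CPM in the 3 tagged IPs and 166, 127 and 109 CPM in the 3 Ago2-/- IPs, against 38.4, 34.4 and 32.9 CPM and 44.2, 43.3 and 46.4 CPM in the inputs. Every tagged IP was higher than every Ago2-/- IP, while the inputs ran the other way. Mean IP over input fell from 12.2-fold to 3.0-fold, with 0.941-fold in untagged cells. The change was -2.03 (SE 0.17, edgeR adjusted p 2.07e-08), which leaves 24.6% of the ratio. It stood at -1.48 (SE 0.12) with the capture covariate.

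Tmem50b (chr16:91574508-91597680), a membrane protein of the secretory pathway, kept the lowest ratio of the 12 named genes with the largest drop. Its IP level was 167, 150.3 and 132 CPM in tagged and 52, 47.3 and 50.6 CPM in Ago2-/- cells, and its input 31.5, 29.3 and 29.1 CPM against 40.0, 35.4 and 31.6 CPM. IP over input fell from 4.99-fold to 1.40-fold, a change of -1.83 (SE 0.14, edgeR adjusted p 2.58e-09). The 3 Ago2-/- libraries were at 0.55, 0.41 and 0.51 in log2 IP over mean input and the untagged libraries at 0.00, 0.10 and -0.02. The ratio was still called above 0 in Ago2-/- cells (0.49, edgeR adjusted p 0.000306).

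Ankrd52, a regulatory subunit of protein phosphatase 6 that is known to act on phosphorylated Ago2, measured 769, 620.2 and 485 CPM in tagged and 375, 302 and 280.2 CPM in Ago2-/- IPs. Its input rose from 48.3 ± 3.41 CPM to 82.9 ± 1.40 CPM (SD, n = 3; log2 change 0.78, edgeR adjusted p 7.2e-05). IP fell and input rose, and the ratio changed by -1.75 (SE 0.16, edgeR adjusted p 8.74e-08). Cfl2, a cofilin that severs actin filaments, showed the same pair of calls: the IP changed by -1.14, the input by 0.61 and the ratio by -1.75. Spryd3 (input change 0.86), Gpkow, a G-patch protein of the spliceosome (0.76), and Mgat5, which branches N-glycans (0.58), were called higher in input as well, with ratio changes of -1.63, -1.63 and -1.61.

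Other large drops came with no input call. Zfp385a, an RNA-binding zinc finger protein, had IP over input of 4.45, 4.02 and 3.63 (log2) in the tagged IPs and 2.66, 2.07 and 1.98 in the Ago2-/- IPs. It remained 4.82-fold over input. Zfp768, a zinc finger protein, had the largest tagged ratio of the 12 genes, 47.3-fold, and kept 15.6-fold. Cdk19, a kinase of the Mediator complex, went from 27.1-fold to 8.39-fold. Klhl28, a BTB-Kelch protein, and Nanos1, a translational repressor that binds RNA with Pumilio, changed by -1.56 and -1.56. Separation of the genotypes was part of the rule that named these 12 genes, so it is no support for them. All 12 stayed called in each of 18 alternative fits (other scalings, filters, tools, sample sets or 1 library left out), and with the capture covariate their changes ran from -0.93 to -1.60.

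**Figure D2:**
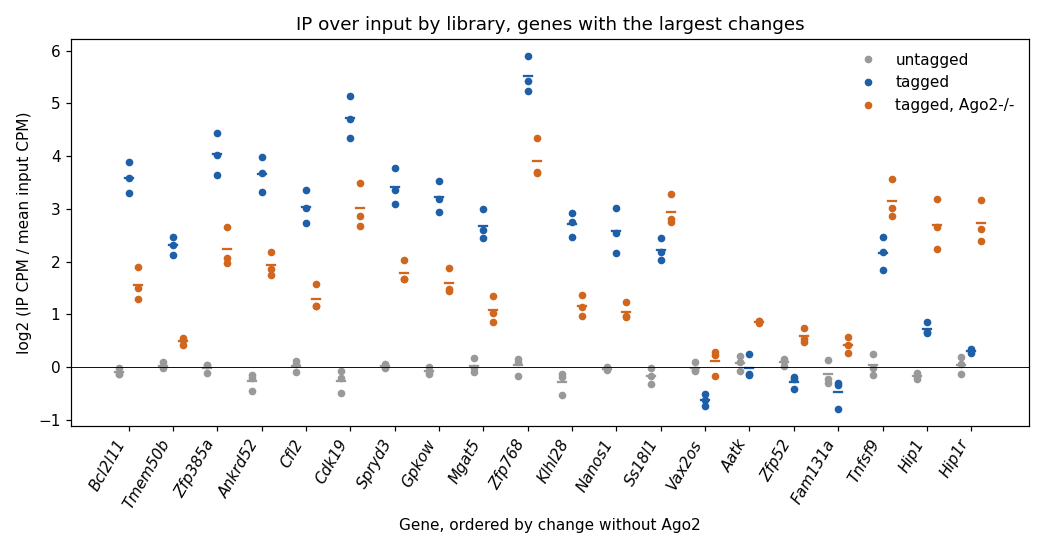
Log2 of IP CPM over the mean input CPM of the same cells, for each of 3 libraries (points) and their mean (bar), in untagged (grey), tagged (blue) and tagged Ago2-/- cells (orange), for the 12 genes with the largest drop and the 8 with the largest rise under the naming rule. In the first 12 genes the orange points lie between the blue and the grey, and in Hip1 and Hip1r they lie above both.

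Among genes called higher, Hip1r (chr5:123973602-124003215) and Hip1 (chr5:135406496-135545323) stood first. They are paralogs that link clathrin-coated pits to actin, and both lie on chromosome 5. Hip1r measured 40.9, 42 and 39.6 CPM in tagged IPs and 304, 208 and 177 CPM in Ago2-/- IPs, with inputs of 33 ± 1.84 CPM and 33.6 ± 0.8 CPM (SD, n = 3). Its association rose from 1.24-fold, near the 1.03-fold of untagged cells, to 6.83-fold, a change of 2.46 (SE 0.18, edgeR adjusted p 9.27e-10). Hip1 measured 66.5, 58.1 and 57.2 CPM in tagged IPs and 395, 274 and 205 CPM in Ago2-/- IPs. Its change was 2.04 (SE 0.22, edgeR adjusted p 7.72e-07), with the input at 36.9 ± 5.27 CPM and 43.2 ± 1.10 CPM. In both genes the 3 Ago2-/- IPs lay far above the tagged IPs while the inputs did not pass the test. In the first experiment the tag-specific log2 enrichment of Hip1r was 0.20 and did not pass the test, and that of Hip1 was 1.33 and did. Both calls held in the 18 alternative fits and with the capture covariate (2.86 and 2.54).

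The other rises were smaller. Tnfsf9, the ligand of the receptor 4-1BB, and Ss18l1, a subunit of the neuronal BAF complex, were tag-associated already, 4.60-fold and 4.69-fold, and reached 9.36-fold and 7.86-fold. Zfp52 (0.88), Fam131a (0.90), the kinase Aatk (0.88) and the noncoding RNA Vax2os (0.76) were near or below input in tagged IPs on average and above it in Ago2-/- IPs. The Tnfsf9 call was lost in 8 and the Vax2os call in 9 of the 12 fits with 1 library left out, and the Ss18l1 call without tagged input replicate 1 (adjusted p 0.062) or Ago2-/- input replicate 1 (0.0564). Across the alternatives the edgeR or DESeq2 adjusted p ranged from 0.000487 to 0.108 for Tnfsf9, from 0.00841 to 0.131 for Vax2os and from 5.52e-05 to 0.0888 for Ss18l1. Vax2os is annotated antisense to Vax2, and whether counting used strand is not given in the sources used here. The 76 genes as a whole had a median IP over input of -0.22 in tagged and 0.34 in Ago2-/- cells.

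Separating the ratio into its parts showed that most calls came with a change in IP. Over all genes tested, 1843 were called lower (9.32%) and 1393 higher (7.04%) in IP, and 509 lower (2.57%) and 867 higher (4.38%) in input. With library size alone, higher calls made up 61.5% of IP calls against 43.0%, and 51.1% of input calls against 63.0%. The input count of 1376 moved to between 774 and 904 when tagged input replicate 2 or 3 or any of the 3 Ago2-/- inputs was left out. Of the 746 genes called lower in the ratio, 626 (83.9%) were also called lower in IP, and the median IP change was -0.49. In input, 178 (23.9%) were called higher and 10 lower, with a median change of 0.17. The classes were 527 genes lower in IP with no input call, 89 lower in IP and higher in input, and 84 higher in input with no IP call. Another 31 had neither call. Ratio, IP and input calls share the same libraries, so these counts describe the composition of the ratio and are no further test. Of the 76 genes called higher, 61 (80.3%) were called higher in IP and 7 lower in input.

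For 84 genes the ratio therefore fell while the IP level did not pass the test, with more RNA in the lysate. Nptx1, a secreted neuronal pentraxin, measured 2.47, 2.99 and 2.66 CPM in tagged and 6.46, 5.66 and 5.50 CPM in Ago2-/- inputs, with no overlap, and 8.65 ± 1.41 CPM against 7.94 ± 0.922 CPM in IP (SD, n = 3). Its ratio changed by -1.24 (SE 0.25, edgeR adjusted p 0.00298). Dazap2, a small proline-rich protein, rose in input from 55.4 ± 0.667 CPM to 89.2 ± 2.01 CPM, and its ratio changed by -0.95. Rnase4, a secreted ribonuclease, changed by -0.94, and its call was lost without Ago2-/- input replicate 2 (-0.77, adjusted p 0.0603, with 0.00401 to 0.0603 over the 18 alternative fits). Ccnd1, cyclin D1, rose in both fractions, by 0.77 in input and 0.23 in IP, and still fell in the ratio (-0.54 (SE 0.10, edgeR adjusted p 0.00132)). Its 3 Ago2-/- inputs, at 161, 159 and 156 CPM, all lay above the tagged inputs at 92.5, 93 and 93.3 CPM.

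**Figure D3:**
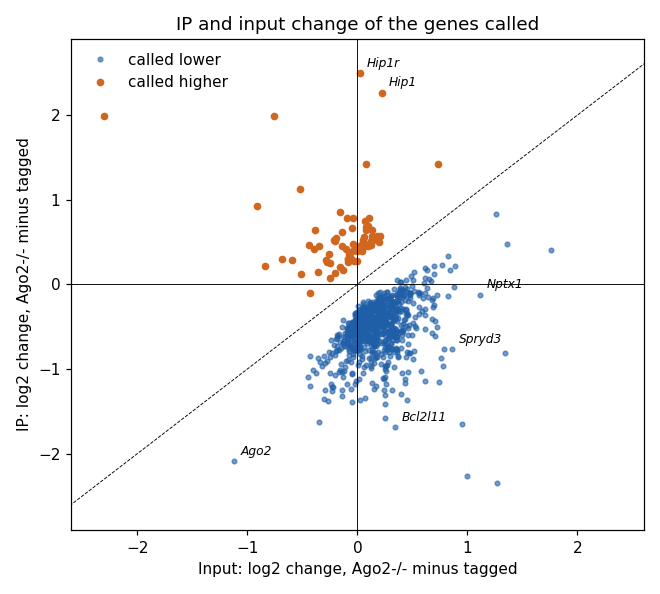
Log2 change from tagged to tagged Ago2-/- cells in input (x axis) and in IP (y axis) for the genes called lower (blue, 746) and called higher (orange, 76) in the ratio, where points on the dashed line would have an equal change in both. Most blue points have an IP change below 0 and many an input change above 0, Ago2 is low in both, and Art3 lies outside the axes.

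The first experiment measured binding to tagged Tnrc6a in other libraries, so it can describe these genes independently. Of the 18553 genes tested in both experiments, 5233 (28.2%) were called higher in tag-specific enrichment there, that is IP over input in tagged against untagged cells. Of the 745 genes called lower without Ago2 that were tested in both, 733 (98.4%) were among them, which is 14.0% of the 5233. The median tag-specific log2 enrichment was 2.24 for these genes and -0.10 over all. Of 73 genes called higher without Ago2, 19 (26.0%) were tag-specific, near the share of all genes. A gene must be held in tagged cells before it can be held less, so this overlap partly follows from the quantity itself. Trim71, an RNA-binding protein of embryonic stem cells, was deleted in further cells of that experiment. There 652 genes (3.51%) were called lower in the Trim71-/- ratio, and 117 of the 745 (15.7%) were among them, or 17.9% of the 652. The limit just given holds for this overlap too, since 98.4% of the 745 were tag-specific. The share among bound genes alone is not given here, so 15.7% against 3.51% is not a comparison of equally bound genes. That count of genes called, 703 in both directions, moved to between 339 and 467 without tagged input 3, tagged IP 3, any Trim71-/- input or Trim71-/- IP 2, and to 1435 without Trim71-/- IP 1. The 117 shared genes became 77 without tagged input 3, 73 without Trim71-/- input 3, 74 without Trim71-/- IP 2 and 177 without Trim71-/- IP 1.

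The change without Ago2 grew with how strongly a gene was bound in the first experiment. The upper 2 classes below are nearly the 1678 genes by which IP strength was measured, where the genotypes differed by -0.41. The class values come from the fit without the capture covariate. They largely restate that difference and are no separate result, and their cause was not tested. Its median was 0.03 in 2614 genes with a tag-specific log2 value of -1 or less and 0.05 in 7377 genes between -1 and 0. It was -0.01 in 4693 genes between 0 and 1, -0.18 in 2158 genes between 1 and 2, -0.35 in 1001 genes between 2 and 3 and -0.52 in 710 genes above 3. The share called lower went from 1.19% between 0 and 1 to 11.4%, 24.3% and 27.9% in the 3 upper classes. Even among the most strongly bound genes, most were not called. Quartiles in the top class ran from -0.85 to -0.15, so strongly bound genes differed widely among themselves. Cdkn1a, the cell cycle inhibitor p21, was one with a high ratio and no call: it was 25.9-fold over input in tagged and 20.7-fold in Ago2-/- cells (-0.32 (SE 0.20, edgeR adjusted p 0.532)). Without Ago2-/- IP replicate 1 it was called, at -0.57 (adjusted p 0.0312, with 0.0158 to 0.897 over the 18 alternative fits).

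**Figure D4:**
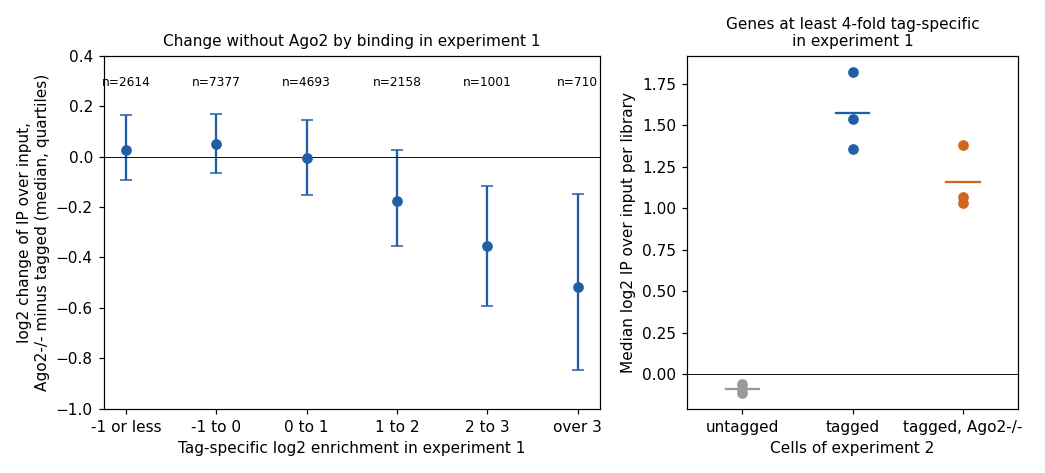
Left, median (point) and quartiles (bars) of the log2 change of IP over input without Ago2, in classes of genes by tag-specific log2 enrichment in the first experiment; the median goes from 0.03 in the lowest to -0.52 in the highest class. Right, median log2 IP over mean input of 1678 strongly tag-specific genes in each IP library of the second experiment with the group mean as a bar; the Ago2-/- libraries lie at 1.03 to 1.38 and the tagged ones at 1.36 to 1.82.

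The genes called lower were also longer and more highly expressed than genes in general, with a median gene model of 5579 bases against 3360.5 and a median log2 CPM of 5.73 against 3.60. Among genes with a mean log2 CPM of at least 2 the lengths were 5624 and 4180 bases. The part of length and level in the calls was not tested. Of the 746 genes, 700 were protein coding in RefSeq and 7 were long noncoding RNAs. Of 59 rows for miRNA genes, 0 were called by edgeR or by DESeq2, and 3 had an unadjusted p under 0.05.

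Among the Argonautes themselves, 3 of 4 mRNAs were called lower in the ratio (75%, against 3.77% of all genes). The 3 include Ago2, the deleted gene, whose remaining RNA may not be the same RNA as in tagged cells. The median tagged log2 IP over input of the 4 mRNAs was 1.55, against -0.04 for all genes. Bound RNAs were called lower more often, as given above, so all genes are a low base for lists of bound RNAs, here and below. Ago2 mRNA fell in IP more than in input, with 912, 817 and 756 CPM in tagged and 198, 211 and 175 CPM in Ago2-/- IPs, so that its ratio changed by -0.97 (SE 0.14, edgeR adjusted p 5.44e-05). Ago1 mRNA was higher in Ago2-/- inputs, at 132, 131 and 129.7 CPM against 104, 87.3 and 90.5 CPM (log2 change 0.48, edgeR adjusted p 0.00597), and lower in the ratio by -0.58. The ratio call of Ago1 was lost in 6 of 12 fits that left out a library and in the fit of only the groups compared (adjusted p 0.132, with 1.71e-06 to 0.132 over the 18 alternative fits). Ago3 changed by -0.69, from 1.85-fold to 1.14-fold, and lost its call without tagged IP replicate 1 (-0.57, adjusted p 0.053) or Ago2-/- input replicate 3 (-0.62, 0.054), in a range of 0.00104 to 0.054. With the capture covariate neither Ago1 (-0.08) nor Ago3 (-0.48) was called. Ago4, the remaining member, stood at 1.19 CPM in tagged input and did not pass the test (-0.33, SE 0.37). Of the GW182 family 0 of 3 members were called by edgeR or by DESeq2, and 1 had an unadjusted p under 0.05. Tnrc6b, a paralog of the bait, was at -0.45 (SE 0.14, edgeR adjusted p 0.0854, with 0.00128 to 0.273 over the 18 alternative fits) and was called without tagged IP replicate 3 (-0.53).

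Reported targets of miR-17 to miR-92 members, whose seeds are printed above, included 4 of 10 genes called lower (40%, against 3.77% of all genes), with a list median of -0.43 against 0.003 for all genes. The list was strongly bound, at a median tagged log2 IP over input of 2.25. In the most strongly bound class of the first experiment (2.30), 27.9% were called lower, at a median change of -0.52. Among the 4 genes called, besides Bcl2l11 and Ccnd1, was Phlpp2, a phosphatase that removes phosphate from Akt. Phlpp2 measured 52.9, 44.4 and 35.6 CPM in tagged and 35.3, 29.2 and 29.6 CPM in Ago2-/- IPs, and its ratio changed by -0.93 (SE 0.21, edgeR adjusted p 0.00744). The groups did not overlap: the lowest tagged IP lay just above the highest Ago2-/- IP. Members that were not called lay on both sides of 0, with Tgfbr2 at 0.25 and Thbs1, under 1 CPM, at 0.87.

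Of 10 measured miR-290 family targets in the literature list, 2 were called lower (20%, against 3.77%) and the list median was -0.27. The list's median tagged log2 IP over input was 2.57. The most strongly bound class of the first experiment, at 2.30, had 27.9% called lower and a median change of -0.52. The list of 10 genes and the class were set side by side by their median ratios only, and the difference in shares was not tested. Ei24, a p53-induced protein of the endoplasmic reticulum, measured 1174, 916 and 762 CPM in tagged and 653, 482 and 497 CPM in Ago2-/- IPs, and its ratio changed by -1.28 (SE 0.15, edgeR adjusted p 4.28e-06). Akt1, a kinase of survival signalling, changed by -0.54 (SE 0.14, edgeR adjusted p 0.0213) and lost its call in 6 of 12 fits that left out a library. Casp2, a caspase, was the nearest to the threshold among the others: it was 14.5-fold over input in tagged and 8.68-fold in Ago2-/- cells (-0.74 (SE 0.22, edgeR adjusted p 0.0553)). It was called without tagged IP replicate 3 (-0.94, adjusted p 0.00364) or Ago2-/- IP replicate 1 (-1.01, 0.00043), within 1.09e-06 to 0.228 over the 18 alternative fits. Of 12 reported let-7 targets, 3 were called lower (25%, against 3.77%), at a list median of -0.15: Ccnd1, Trim71 and Igf2bp3, the last an mRNA-binding protein. The let-7 list's median tagged ratio was 0.64, near the 0.62 of the class between 1 and 2. In that class 11.4% were called lower, at a median change of -0.18. Trim71 mRNA measured 730.1, 660.2 and 585 CPM in tagged and 459.7, 415 and 356 CPM in Ago2-/- IPs at near-equal inputs (change -0.10), and its ratio changed by -0.58 (SE 0.12, edgeR adjusted p 0.00265). Of 8 measured genes reported as Trim71 targets, Mbnl1, a splicing factor, was called lower (-0.93 (SE 0.22, edgeR adjusted p 0.00947)), which makes 12.5% of the list, and the list median was -0.16. The Trim71 list's median tagged ratio was 1.66, above the 1.30 of the class between 2 and 3. In that class 24.3% were called lower, at a median change of -0.35. The fit of only the groups compared lost the Mbnl1 call (adjusted p 0.0874). The list medians of the change depended on the capture covariate, with which the miR-17 to miR-92 list stood at 0.19, the miR-290 list at 0.20, the let-7 list at -0.01 and the Trim71 list at 0.31. Bcl2l11 and Ei24 were still called with it, and Phlpp2, Ccnd1, Akt1, Trim71, Igf2bp3 and Mbnl1 were not.

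Some mRNAs of the machinery that acts after Tnrc6a binding were held less without Ago2. Of 25 genes of deadenylation and decapping, 5 were called lower (20%, against 3.77% of all genes), with a list median of -0.01. Dcp2, the decapping enzyme, measured 797, 665 and 539.8 CPM in tagged and 299.6, 244 and 229 CPM in Ago2-/- IPs, and its ratio changed by -1.11 (SE 0.14, edgeR adjusted p 1.04e-05). The deadenylase subunits Cnot6 (-0.79) and Cnot6l (-0.77), which code for paralogous CCR4 nucleases, fell alike in size. Lsm14b, of an RNA granule family, changed by -0.56 and Cnot9, a CCR4-NOT subunit, by -0.32, the latter lost in 6 of 12 fits that left out a library. With the capture covariate Dcp2 was still called (-0.64), and Cnot6 (-0.32), Cnot6l (-0.37), Lsm14b (-0.20) and Cnot9 (-0.14) were not. Of 11 miRNA biogenesis genes 0 were called by edgeR or by DESeq2, 2 had an unadjusted p under 0.05, and the median was 0.05.

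**Figure D5:**
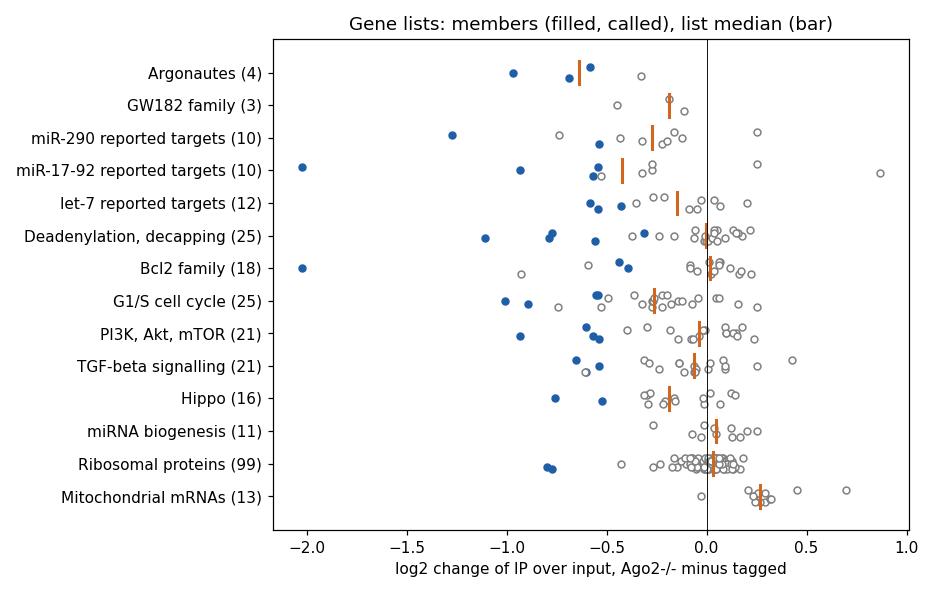
Log2 change of IP over input from tagged to tagged Ago2-/- cells (x axis) for the members of 14 gene lists (rows, with the number of members), filled where called at an adjusted p under 0.05, and the list median as an orange bar. Filled points lie left of 0 in each list that has any. The row labelled ribosomal proteins, picked by symbol and also holding S6 kinase genes, mostly clusters near 0, with its 2 called members to the left.

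Cell cycle and signalling genes held further calls, all in the lower direction. Of 25 genes of the G1/S transition, 4 were called lower (16%, against 3.77% of all genes) and 21 had values below 0 (9796 of 19778 over all genes), with a median of -0.26. The list's median tagged log2 IP over input was 1.07, against -0.04 for all genes. E2f5, a repressive E2F, measured 177, 146 and 117 CPM in tagged and 101, 81.2 and 83 CPM in Ago2-/- IPs (ratio -1.01 (SE 0.14, edgeR adjusted p 5.43e-05)). Ccne2, cyclin E2, stayed highly associated, at 25.5-fold and 13.7-fold (-0.89 (SE 0.24, edgeR adjusted p 0.0258)), and its call was lost in 9 of 12 fits that left out a library. Ccnd3, cyclin D3, changed by -0.55, beside Ccnd1. The list median was -0.01 with the capture covariate, and E2f5 was still called (-0.54), while Ccne2 (-0.10), Ccnd3 (-0.21) and Ccnd1 (-0.30) were not.

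Of 21 genes of PI3K, Akt and mTOR signalling, 4 were called lower (19%, against 3.77%), Phlpp2, Akt2 and Akt1 among them, at a median of -0.04. Akt2, at -0.60, had no IP call and an input rise of 0.48. With the capture covariate none of these 3 was called (Phlpp2 -0.50, Akt2 -0.35, Akt1 -0.14), and the fit of only the groups compared also lost Akt1 (adjusted p 0.099, with 0.000145 to 0.099 over the 18 alternative fits). Of 21 genes of TGF-beta superfamily signalling, 3 were called lower (14.3%) at a median of -0.06: Smad5 (-0.65) and Smad2 (-0.60), which carry BMP and Nodal signals to the nucleus, and the receptor Tgfbr1 (-0.54), which lost its call in 5 of 12 fits that left out a library and with library size alone (adjusted p 0.104, with 1.74e-05 to 0.104 over the 18 alternative fits). Smad2 was still called with the capture covariate (-0.41), and Smad5 (-0.45) and Tgfbr1 (-0.44) were not. Of 16 Hippo genes, the kinase cofactor Mob1b (-0.76) and Amotl1 (-0.52), which binds Yap1, were called lower (12.5%) at a median of -0.19, and neither was called with the capture covariate (-0.40 and -0.33). Of 18 Bcl2 family genes, 3 were called lower (16.7%) at a median of 0.02. Besides Bcl2l11 these were the anti-apoptotic Mcl1 (-0.44) and the mitophagy receptor Bnip3l (-0.39). The calls of Mcl1 and Bnip3l were lost with library size alone (adjusted p 0.0543 and 0.0944, with 9.57e-05 to 0.0691 and 1.64e-06 to 0.0944 over the 18 alternative fits). Bnip3l was called with the capture covariate (-0.39) and Mcl1 was not (-0.17).

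The remaining lists held few calls or none. A list of 99 genes was picked by symbol, Rpl or Rps followed by a digit. It holds mostly cytosolic ribosomal protein genes, and also others such as the S6 kinase genes Rps6ka1 and Rps6kb1. Of the 99, 2 were called lower (2.02%, under the 3.77% of all genes), Rps27 (-0.80) and its retrogene Rps27rt (-0.78). These 2 are near-identical copies that counting may have split, and the list median was 0.03. Rps27 was still called with the capture covariate (-0.44) and Rps27rt was not (-0.41). The list of 16 embryonic stem cell markers, 17 immediate early genes (16 tested), 12 measured nuclear noncoding RNAs and the 13 mitochondrial mRNAs had 0 calls by edgeR or by DESeq2, and 1, 3, 0 and 0 members at an unadjusted p under 0.05. Their medians were 0.04, -0.01, 0.08 and 0.27. Of the 13 mitochondrial mRNAs 12 had values above 0, and in tagged cells their median IP over input was -0.91, the lowest of the lists. With the capture covariate the mitochondrial median was 0.02.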

How the data were processed

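RNA was sequenced with a stranded total RNA kit after anti-HA bead pull-down, per the labels' protocols. STAR 2.7.3a, bcl2fastq 2.20 and the builds GRCm38 and mm10 are named in the submitters' processing notes, and the counting tool is not given in the sources used here. The authors deposited, per the file headers, 1 table an experiment with unnormalized counts, RPKM values and gene lengths. RPKM values were not used. Low rows were absent before any filter (smallest row total 56 counts). Groups came from titles and treatment labels.

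The main test was edgeR 4.0.16 under R 4.3.3 (TMM, filterByExpr, quasi-likelihood F test, a mean for each of 8 groups, 24 libraries in 1 fit), with Benjamini-Hochberg adjustment over all 19778 genes and a threshold of 0.05. SEs were taken as change over root F. CPM are scaled to TMM-adjusted library sizes, and the log2 ratio of a library uses a prior count of 2. The first experiment was fitted separately in the same way. Replicate pairs differed by more than sampling noise (chi-square per gene 3.01 to 64.1 over 12 pairs), so each library counted as its own replicate. Reads carry no stated molecular identifiers, so counting precision at this depth ignores duplicate molecules. The fit was tested on simulated counts.

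Genes were named by rule: Ago2, Tnrc6a and Trim71; up to 12 genes called lower and 8 called higher with the largest change, a symbol, a mean log2 CPM of at least 2 and complete separation of the genotypes over 9 IP-minus-input values each; up to 3 called lower with a higher input and no IP call; called members of the lists and the 2 with the largest change of each. The values of 1 called list member are not reported here. The members and lists were chosen with earlier results of these data known. Symbols are those of the tables, and 16238 rows matched the RefSeq table of GRCm38.p6, which gave positions and biotypes. Alternatives were RLE size factors, library size alone, no filter, DESeq2 1.42.0, only the 4 groups compared, the replicate number as a block, leaving out each of the 12 libraries and, added after seeing the data, the capture covariate.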

Additional observations from a re-analysis of the deposited data

Results flagged for a closer look

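For 3 of the named genes all 9 differences of an IP and an input library lay on one side of 0 in tagged cells and on the other side in Ago2-/- cells, with the difference between genotypes called by edgeR. Igf2bp3, an mRNA-binding protein and reported let-7 target, was above input in tagged IPs (log2 IP over mean input 0.39, 0.32 and 0.25) and below it in Ago2-/- IPs (-0.08, -0.11 and -0.13). Its change was -0.43 (SE 0.09, adjusted p 0.00363), its input rose by 0.39, and its call was lost with library size alone (adjusted p 0.0561, the highest of 18 alternative fits, which started at 7.77e-05).

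Zfp52, a zinc finger gene, went from -0.22, -0.19 and -0.41 to 0.75, 0.54 and 0.49, a change of 0.88 (SE 0.20, adjusted p 0.00731). Fam131a went from -0.34, -0.30 and -0.79 to 0.57, 0.27 and 0.42, a change of 0.90 (SE 0.21, adjusted p 0.00905). Both calls held in each of these fits and with the capture covariate. Both genes are low, at 6.0 ± 0.58 CPM (Zfp52) and 5.72 ± 0.45 CPM (Fam131a) in tagged inputs (SD, n = 3).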

How the results depend on the processing

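The direction of the named genes called, lower or higher, was stable, and the counts were not. Of 52 named genes called, 38 stayed called in all 18 alternative fits, and 27 with the capture covariate, where all 52 kept their sign. These 52 were picked as called in the same libraries, so a kept sign partly follows from that choice. Values that changed sign were those of Tnrc6a (-0.58 to 0.070 with 1 library left out; 0.72 with the capture covariate), Casp2 (0.026 with the covariate) and Cdkn1a (0.35 with it), none called in the fit reported. Tnrc6a was called with the covariate (adjusted p 0.0319). Library size alone gave 468 lower and 165 higher, and the fit of only the groups compared gave 38 higher. The capture covariate gave 480 calls, 194 lower and 286 higher, and 1752 for the IP level, and it moved 17 of 25 list medians by more than the spread between libraries. Leaving out 1 library gave 588 to 1224 calls, 515 to 1144 lower, 44 to 101 higher and 81 to 225 of at least 2-fold, 2330 to 3436 for IP, 774 to 1519 for input, 10017 to 10600 for tag-specific and 339 to 1435 for Trim71-dependent enrichment in the first experiment. With library size alone, higher calls in the latter made up 24.6% against 7.25%. The cause of these shifts was not tested.

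Same-numbered libraries of the 2 genotypes did not all deviate together (correlations 0.22, 0.003 and 0.22 in input and 0.58, 0.07 and 0.42 in IP), so the numbers were not taken as pairs. Differently numbered libraries ran from -0.23 to 0.03 in input and from -0.55 to 0.32 in IP. Numbers 1 and 3 lay above these ranges in both fractions and number 2 did not. A shift shared by libraries of a number is thus partly visible, and the fit reported leaves it in the spread. With the replicate block, 1871 genes were called, 1584 lower, 287 higher and 181 of at least 2-fold, and 2656 in input. Tnrc6a was called lower with the block (-0.24, adjusted p 0.0337). Depth limits genes near 1 CPM, where the SE was wide, as for Ago4.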

Other observations

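Zinc finger genes with a Zfp symbol, a group chosen after its values were seen, were called in both directions. Of 387 tested, 19 were lower (4.91%, against 3.77% of all genes) and 11 higher (2.84%, against 0.384%). In IP alone 68 were called higher (17.6%, against 7.04% of all genes) and 40 lower (10.3%, against 9.32%). In input 13 were called higher (3.36%, against 4.38%) and 7 of the 387 lower (against 2.57%). Apart from the higher IP calls, these IP and input shares lay near those of all genes. The balance of the ratio calls depended on scaling: DESeq2 gave 22 lower and 13 higher, RLE size factors 18 and 8, library size alone 13 and 18, and the capture covariate 5 and 19. Values of genes with close paralogs are uncertain, as the counting of shared reads is not given in the sources used here.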
